A study of Mus musculus with 7 samples.

Results

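The 10 genes studied here set or mark the balance between epithelial and mesenchymal cell states in the forelimb bud of the mouse embryo. They were chosen as every non-control probe whose gene name in the scanner files was Esrp1, Esrp2, Zeb1, Zeb2, Snai1, Snai2, Twist1, Twist2, Prrx1 or Vim. This gave 13 probes for 10 genes, of 55681 probes and 36373 gene names on the array. Of the genes, 7 had 1 probe and 3 had 2 probes. The study compared microdissected apical ectodermal ridge (AER), the thickened epithelium along the rim of the limb bud, with surface ectoderm taken from the posterior limb as its control. Both groups came from C57/Bl6 embryos at embryonic day 11.5, with no mutation or treatment named, and each array held RNA pooled from 2 to 3 mice. The AER group had 3 arrays and the ectoderm group had 4. The labels number the arrays of each group as separate replicates. Ectoderm replicates 2 and 4 carry the same number in the deposited file names and were the most alike pair of ectoderm arrays, with a correlation of 0.995 over probes. They were counted as 2 replicates, and averaging them into 1 left 2928 called probes, against 4243, and the same member counts, 2 higher and 3 lower.

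Epithelial cells are held in sheets by E-cadherin and other junction proteins, and they can lose these contacts and move as mesenchymal cells in an epithelial-mesenchymal transition (EMT). Zinc-finger repressors of the ZEB and SNAIL families and basic helix-loop-helix factors of the TWIST family repress epithelial genes, in part through the E-box sequence CACCTG, while the RNA-binding proteins ESRP1 and ESRP2 keep epithelial splice forms of many transcripts. In the limb bud the same TWIST and PRRX factors serve as regulators of the mesenchyme that lies under the ectoderm, so their transcripts mark that tissue as well as a switch of state.

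The probes are 60 bases long, and the scanner files place them on mm9. What exon or untranslated region lies under them was not looked up here. The first 30 bases of the probes that carried the called differences are shown, because each gene's result is the result of these stretches and because Esrp1 and Prrx1 were each read at a pair of places:
Esrp1 probe 1, chr4:11260208-11260267, minus strand: ctgtgcattcccaatcttctgtctccctgt
Esrp1 probe 2, chr4:11284629-11284688, minus strand: tcagctgaggagatgaactttgtgttaatg
Esrp2, chr8:108655089-108655148, minus strand: atggtgtgacagccagaaaaccttccatct
Zeb2 probe 1, chr2:44842774-44842833, minus strand: ctgtattttcgactgaaaattccactttct
Twist2, chr1:93744519-93744577, plus strand: ttattgagatattttaccagctaagtgact
Prrx1 probe 1, chr1:165175375-165175434, minus strand: cacgtgggaggttaaattaaaccagaagta
Prrx1 probe 2, chr1:165185408-165185467, minus strand: tcaagctagtacctcacatgagatattcat
The files tie the pair of Prrx1 probes to different RefSeq transcripts of the gene, and the Esrp1 pair to the same one.

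Values are the scanner's processed signal divided by the 75th percentile of that array, so 1 is the level of the 75th percentile. Levels of different probes are not compared with each other, since probes differ in brightness. That percentile was 341 to 563 signal units for AER and 257 to 444 for ectoderm, with 0 saturated probes. The labels were checked against known genes, and ectoderm replicate 3 lay farthest from its group in Fgf8. Fgf8, the growth factor of the ridge, had log2 levels of 5.84, 6.43 and 6.54 on AER arrays, against -2.33, -1.42, 2.20 and -1.40 on ectoderm arrays 1 to 4. All AER arrays were high, and ectoderm replicate 3 was the highest of the ectoderm arrays. Of 11 tested AER markers, 10 were higher in AER, led by Sp9, Dlx5 and Rspo2. Limb mesenchyme transcripts were read in both groups, with summed marker levels of 273 to 311 in AER and 387 to 569 in ectoderm. A summed level, here and below, is weighted to the brightest probes of its list and does not measure the share of a tissue. The ectoderm arrays also held muscle progenitor transcripts. The values of both marker lists stand beside the mesenchymal genes. Epcam and Cdh1, which mark epithelium, were well above background on all 7 arrays of both groups.

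Of the 10 genes, Esrp1 and Esrp2 were higher in AER, and Zeb2, Twist2 and Prrx1 were lower. Zeb1, Snai1, Snai2, Twist1 and Vim did not pass the test. The count of 5 called genes stands beside a background of 15.4% called among all 20826 genes with a tested probe. Of all these genes 6.93% were higher and 8.47% were lower in AER, and the gene list counts given below stand beside the same shares. A gene was called when its brightest probe had an adjusted p under 0.05 in limma's moderated test, with Benjamini-Hochberg adjustment over 28280 probes. Of the 10 genes, 9 were well above background on all 7 arrays, and the exception was Zeb2. Of 13 probes, 12 were tested and 7 were called, against 15.0% of all tested probes. In the scaled values the groups kept apart for 8 of the 10 genes, with every AER array on the same side of every ectoderm array. Over all genes that share was 30.4%. Of the 8, 3 were higher in AER (12.6% of all genes) and 5 were lower (17.8%). For Zeb1, Zeb2 and Vim the separation rests on the scaling, as given below. The median difference of the 10 genes was -0.33 on the log2 scale and that of all genes was -0.08. Without ectoderm replicate 3 the counts were again 2 higher and 3 lower, with log2 differences of 1.52 for Esrp1, 1.51 for Esrp2 and -2.69 for Zeb2. The plot of levels by array shows each probe in every sample.

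**Figure D1:**
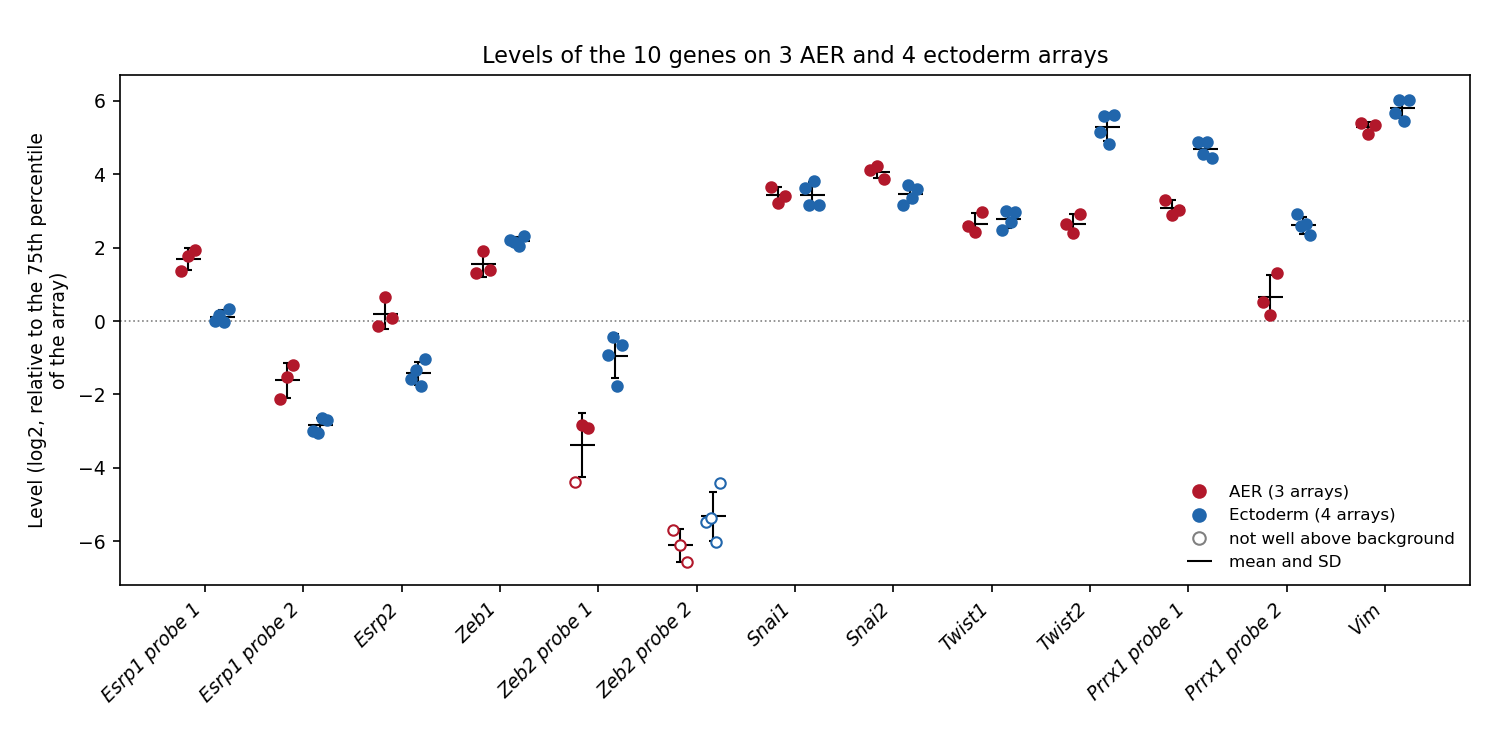
Log2 levels of the 13 probes, relative to the 75th percentile of each array, on 3 AER arrays (left, red) and 4 ectoderm arrays (right, blue). Each point is 1 array, open points were not well above background, and bars give the mean and SD. Both Esrp1 probes and Esrp2 sit higher on every AER array, while Twist2, both Prrx1 probes and Zeb2 probe 1 sit lower. Snai1 and Twist1 overlap.

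The ESRP genes were higher in AER. Esrp1, which keeps epithelial exons in transcripts such as that of the receptor Fgfr2, had levels of 2.57, 3.43 and 3.80 on AER arrays at probe 1, against 1.00, 1.12, 0.985 and 1.26 on ectoderm arrays. Every AER array was above every ectoderm array. Esrp1 was 2.97-fold higher in AER (95% interval 2.22 to 3.97; log2 difference 1.57; adjusted p = 0.000641, limma).

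At its dimmer probe Esrp1 had levels of 0.228, 0.347 and 0.437 on AER arrays, against 0.126, 0.121, 0.161 and 0.154 on ectoderm arrays. The groups did not overlap there either, and AER was 2.34-fold higher (95% interval 1.61 to 3.39; adjusted p = 0.00868, limma). Between the probes the log2 change differed by 0.34 (95% interval -0.10 to 0.78; two-sided exact permutation p = 0.114), a comparison added after the values had been seen.

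Esrp2, the paralogue with largely shared target exons, had levels of 0.909, 1.56 and 1.06 on AER arrays, against 0.332, 0.400, 0.293 and 0.491 on ectoderm arrays. The lowest AER array was above the highest ectoderm array. Esrp2 was 3.08-fold higher in AER (95% interval 2.09 to 4.54; log2 difference 1.62; adjusted p = 0.00246, limma). The changes of Esrp1 and Esrp2 differed by -0.06 on the log2 scale, Esrp1 minus Esrp2, with a 95% interval of -0.56 to 0.45 (two-sided exact permutation p = 0.857). With 3 against 4 arrays there are 35 splits, and 0.0571 is the smallest two-sided p they can give.

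Other epithelial genes were higher in AER as well. Epcam, an epithelial adhesion protein, was higher in AER, with a log2 difference of 1.77 (adjusted p = 0.000216, limma). Cdh1, which encodes E-cadherin and was picked for that role after values were seen, was higher at 1.70 (adjusted p = 0.00327, limma). Of 10 surface ectoderm markers, 7 were higher and 1, Krt15, was lower at -5.6 (adjusted p = 0.00119, limma), and the median of the list was 1.49. Their summed level was 223 to 240 in AER, against 95 to 142 in ectoderm. When each array was centred on the mean of those markers, which moved the median of all probes to -0.65, the log2 difference of Esrp1 was 0.98 (adjusted p = 0.0289) and that of Esrp2 1.04 (adjusted p = 0.0206, limma). The markers themselves kept a median of 0.90 there, since Krt15 draws their mean the other way. Centred on the markers other than Krt15, a setting added after the values had been seen, neither ESRP gene passed the test. Esrp1 was then at 0.29 (adjusted p = 0.259) and Esrp2 at 0.35 (adjusted p = 0.187, limma), with the markers at a median of 0.22 and all probes at -1.34. Centring shifts every probe of an array by the mean of the chosen markers, so the ESRP calls depended on whether Krt15 was among them. Apart from these centrings, whether the ESRP genes changed beyond the epithelial markers was not tested. The centrings cannot decide it, since 7 of the 10 listed markers were themselves higher in AER. In bulk tissue, more epithelial cells and more transcript per cell cannot be told apart. The first row of the slide held 1 AER array and 3 ectoderm arrays, and the second 2 AER arrays and 1 ectoderm array. A comparison within a row thus has a lone array on 1 side, which is assumed to vary like the others. The log2 difference of Esrp1 was 1.31 in the first row and 1.52 in the second, with adjusted p of 0.0486 and 0.0713 (limma). That of Esrp2 was 1.42 in the first row and 1.39 in the second, with adjusted p of 0.0637 and 0.126 (limma).

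**Figure D2:**
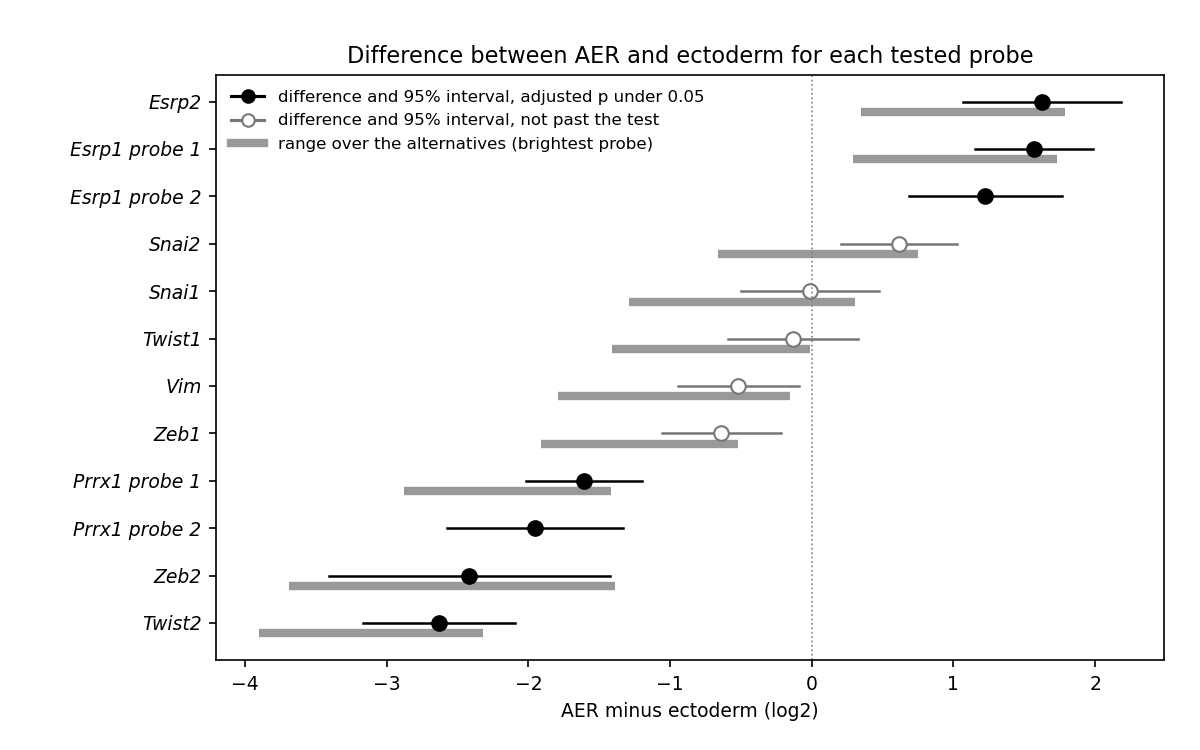
Differences between AER and ectoderm on the log2 scale for the 12 tested probes, with points right of 0 higher in AER. Thin lines are 95% intervals from limma, grey bars give the range of the brightest probe over the alternative settings, filled points passed the test, and open points did not. The ESRP genes lie between 1.23 and 1.62, and Twist2, Zeb2 and Prrx1 between -2.63 and -1.61.

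The ZEB factors are direct repressors of Cdh1, and of the pair Zeb2 passed the test. Zeb2 had levels of 0.0483, 0.141 and 0.133 on AER arrays at probe 1, against 0.523, 0.738, 0.291 and 0.637 on ectoderm arrays. Zeb2 was well above background on 2 of 3 AER arrays and on all 4 ectoderm arrays, and the groups did not overlap. Zeb2 was 5.34-fold lower in AER (95% interval 2.68 to 10.6; log2 difference -2.42; adjusted p = 0.00635, limma). With the normexp background correction, whose offset shrinks differences of dim probes, the log2 difference was -1.47 (adjusted p = 0.000421, limma), and -1.39 in the authors' processed values (adjusted p = 0.00433, limma). Within the first row of the slide it was -3.32 (adjusted p = 0.0559, limma), a value that rests on AER replicate 1 alone, where Zeb2 was not well above background. Before scaling, the processed signal of Zeb2 was 79.6 on AER replicate 2 and 74.6 on ectoderm replicate 3, so the separation of these arrays rests on the scaling. The other Zeb2 probe was not well above background on any array, at 0.0106 to 0.0195 in AER and 0.0155 to 0.0467 in ectoderm, and was not tested.

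Zeb1 had levels of 2.47, 3.78 and 2.64 on AER arrays, against 4.59, 4.44, 4.12 and 5.0 on ectoderm arrays. After scaling, each AER array was below each ectoderm array, with AER replicate 2 the nearest. Before scaling, the processed signal of Zeb1 was 2127 on AER replicate 2 and 1973 on the highest ectoderm array, replicate 2. The separation of AER replicate 2 thus rests on the scaling. The log2 difference of Zeb1 was -0.64 (95% interval -1.06 to -0.22; adjusted p = 0.0507, limma), which missed the threshold. It was -0.99 with normexp (adjusted p = 0.00323, limma) and -0.97 in the authors' processed values (adjusted p = 0.00449, limma). Without AER replicate 2 it was -0.83 (adjusted p = 0.00961, limma), the 1 call among the 7 fits that left out an array. Zeb1 was called in 11 of the 22 alternatives that kept both slide rows, with adjusted p from 3.53e-05 to 0.165 (limma). The smallest came from the centring without Krt15, where the median of all probes was -1.34. Several of the calls kept the difference at -0.64 and changed only the set of probes fitted. The change of Zeb1 minus that of Zeb2 was 1.78 (95% interval 0.61 to 2.95), with no overlap between groups and the smallest two-sided exact permutation p the design allows, 0.0571 (0.114 after adjustment over 4 pairs of paralogues). With normexp that difference was 0.48 (95% interval -0.11 to 1.07; two-sided exact permutation p = 0.114).

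Neither SNAIL factor passed the test. Snai1, a repressor of Cdh1 that acts at the onset of EMT, had levels of 12.6, 9.26 and 10.7 on AER arrays, against 12.4, 8.89, 14.1 and 8.95 on ectoderm arrays. The groups overlapped, and the log2 difference was -0.01 (95% interval -0.50 to 0.47; adjusted p = 0.972, limma). This interval excludes a difference as large as that of Esrp1, Esrp2, Twist2 or Prrx1. Across alternatives the Snai1 difference ran from -1.29 to 0.31, with adjusted p from 0.00194 to 0.987 (limma). It was called in 1 of 24, the centring on markers other than Krt15, where the median of all probes was -1.34.

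Snai2, its paralogue and a factor of migrating neural crest, had levels of 17.2, 18.5 and 14.7 on AER arrays, against 8.94, 13.0, 10.2 and 12 on ectoderm arrays. The lowest AER array was above the highest ectoderm array. The log2 difference was 0.62 (95% interval 0.21 to 1.03; adjusted p = 0.0531, limma), which missed the threshold. It was called in 9 of the 22 alternatives that kept both slide rows, and the call under the centring without Krt15 was in the opposite direction. The calls of a higher level included quantile normalization (0.75, adjusted p = 0.0256, limma) and the authors' processed values (0.73, adjusted p = 0.0135, limma). Centred on the surface ectoderm markers the Snai2 difference was 0.03 (adjusted p = 0.945, limma), with the median of all probes at -0.65. Without Krt15 among the markers the Snai2 difference was -0.66 (adjusted p = 0.0145, limma), with the median of all probes at -1.34. The change of Snai1 minus that of Snai2 was -0.63 (95% interval -1.56 to 0.30; two-sided exact permutation p = 0.229, adjusted p = 0.305).

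In the TWIST family Twist2 was lower in AER, and Twist1 did not pass the test. Twist2, a basic helix-loop-helix factor of dermal and limb mesenchyme, had levels of 6.28, 5.28 and 7.51 on AER arrays, against 35.1, 47.6, 28.1 and 49.0 on ectoderm arrays. Every AER array was far below the lowest ectoderm array, replicate 3. Twist2 was 6.19-fold lower in AER (95% interval 4.27 to 8.96; log2 difference -2.63; adjusted p = 0.000144, limma), the smallest p of the 12 tested probes. It was called in all 24 alternatives, with log2 differences from -3.90 to -2.32 and adjusted p from 1.25e-08 to 0.0402 (limma).

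Twist1, which limb bud mesenchyme of the mouse needs for outgrowth, had levels of 5.96, 5.34 and 7.83 on AER arrays, against 5.53, 7.99, 6.52 and 7.87 on ectoderm arrays. Its groups overlapped, and the log2 difference was -0.13 (95% interval -0.59 to 0.32; adjusted p = 0.689, limma). Twist1 was called in 1 of 24 alternatives, the centring on markers other than Krt15, with adjusted p from 0.000273 to 0.971 (limma). Under that centring the median of all probes was -1.34. The change of Twist1 minus that of Twist2 was 2.5 (95% interval 2.09 to 2.91), with no overlap and a two-sided exact permutation p of 0.0571 (0.114 after adjustment over 4 pairs). It was 2.19 with normexp (95% interval 1.62 to 2.75; two-sided exact permutation p = 0.0571).

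Prrx1, a homeobox gene of limb bud mesenchyme that can also drive EMT, had levels of 9.87, 7.43 and 8.16 on AER arrays at probe 1, against 29.3, 23.3, 29.3 and 21.8 on ectoderm arrays. No AER array came near the lowest ectoderm array. Prrx1 was 3.05-fold lower in AER (95% interval 2.29 to 4.05; log2 difference -1.61; adjusted p = 0.000505, limma). Probe 2 had levels of 1.43, 1.12 and 2.46 on AER arrays, against 7.47, 5.98, 6.20 and 5.04 on ectoderm arrays. That probe too was lower in AER without overlap, by 3.87-fold (95% interval 2.52 to 5.94; adjusted p = 0.00159, limma). The log2 changes of the pair of probes differed by 0.34 (95% interval -0.42 to 1.11; two-sided exact permutation p = 0.286, added after the values had been seen). Within the first slide row probe 1 differed by -1.46 and within the second by -1.48, each against a lone array on 1 side, with adjusted p of 0.0538 and 0.0802 (limma).

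Vim encodes vimentin, the intermediate filament protein of mesenchymal cells and a common readout of EMT. Vim had levels of 42.0, 34.2 and 40.3 on AER arrays, against 51.1, 64.8, 43.9 and 64.8 on ectoderm arrays. The groups did not overlap after scaling, though the highest AER array and the lowest ectoderm array lay close together. Before scaling, the processed signal of Vim was 11260 on ectoderm replicate 3 and 14310 on the lowest AER array, replicate 1. The separation of ectoderm replicate 3 thus rests on the scaling. The log2 difference was -0.52 (95% interval -0.95 to -0.09; adjusted p = 0.104, limma) and did not pass the test. It was -0.15 in the authors' processed values (adjusted p = 0.570, limma) and -1.10 when arrays were centred on surface ectoderm markers (adjusted p = 0.0158, limma), where the median of all probes was -0.65. Of 11 tested intermediate filament genes outside the keratins, Vim among them, 3 were lower in AER and 0 were higher, with a median of -0.51. The muscle filament gene Des was at least 8.57-fold lower (adjusted p = 0.000247, limma) in AER, since all AER arrays were at background. The neurofilament genes Nefl and Nefm were lower, with log2 differences of -1.66 (adjusted p = 0.00699) and -1.89 (adjusted p = 0.0101, limma), and each was well above background on 1 of 3 AER arrays.

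Many markers of the tissue beneath the ectoderm were lower in AER, like the called mesenchymal members, and others were not. Of 15 limb mesenchyme markers 8 were lower in AER, 2 were higher and 5 were not called. Their summed level was 273 to 311 in AER, against 387 to 569 in ectoderm. The 2 higher genes were Lhx2 at 2.93 (adjusted p = 0.0012) and Lhx9 at 2.5 (adjusted p = 0.00344, limma), named after values were seen. None of the 15 was at background throughout a group. Shox2, Dcn and Lum, a limb homeobox gene and genes of matrix proteoglycans, were lower, with log2 differences of -6.40 (adjusted p = 6.12e-06), -7.15 (adjusted p = 2.13e-05) and -8.09 (adjusted p = 2.77e-05, limma). All 9 tested muscle progenitor markers were lower, and their summed level was 0.494 to 1.31 in AER, against 19.5 to 37.9 in ectoderm. Myod1 and Pax3, which specify muscle, were at -7.10 (adjusted p = 2.01e-05) and -3.95 (adjusted p = 2.58e-05, limma), and Msc was at least 20.7-fold lower (adjusted p = 3.19e-05, limma). Myod1 was well above background on 1 of 3 AER arrays and Pax3 on 2 of 3, like Shox2, Dcn and Lum. Of the 10 listed muscle genes, Msc and Myf5 were at background on all AER arrays, and Myf5 on all ectoderm arrays too. The part of carried-over mesenchyme or muscle in the lower Zeb2, Twist2 and Prrx1 levels of AER was not tested. Endothelial markers gave 1 lower gene of 10, Sox18 at -0.66 (adjusted p = 0.0152, limma). Macrophage markers gave 0 called of 10 and erythroid markers 0 of 9 by limma, with 0 and 2 at an unadjusted p under 0.05, and with normexp and the 75th percentile the counts were 0 and 1. Neural crest, Schwann and melanoblast markers gave 1 higher gene of 7, the melanoblast gene Dct at 4.71 (adjusted p = 0.00129, limma), which was well above background on 1 of 4 ectoderm arrays, and 3 of 12 listed genes were at background on all arrays.

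**Figure D3:**
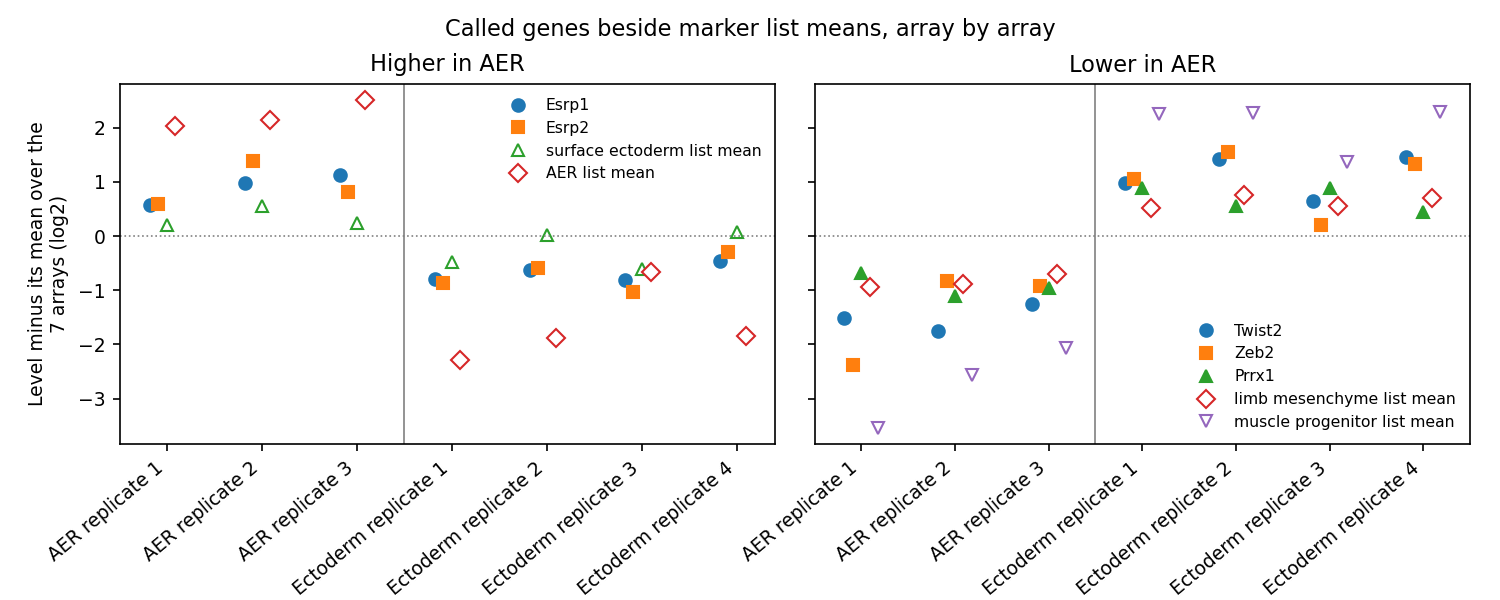
Levels of the called genes (filled) and mean levels of marker lists (open) on each array, as log2 differences from their own mean over the 7 arrays, with AER arrays left of the line and ectoderm arrays right. In the left panel Esrp1, Esrp2 and the epithelial marker lists are higher on AER arrays. In the right panel Twist2, Zeb2, Prrx1, limb mesenchyme and muscle progenitor markers are higher on ectoderm arrays.

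The genes that EMT repressors act on were read next, from a list of epithelial genes repressed by ZEB and SNAIL factors in other epithelia. Of 18 tested, 13 were higher in AER and 0 were lower, with a median log2 difference of 1.49. The smallest p values were those of the membrane protease St14 at 3.54 (adjusted p = 2.31e-05), the tight-junction gene Cldn7 at 2.61 (adjusted p = 2.64e-05) and Epcam at 1.77 (adjusted p = 0.000216, limma). Centred on the surface ectoderm markers the median of the list was 0.91, beside 0.90 for the markers themselves, and without Krt15 among them both medians were 0.22. The list shares Epcam, Cdh1 and other genes with the surface ectoderm markers and was drawn up with earlier results known.

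Among epithelial gatekeeper factors, which maintain the epithelial program, 6 of 11 tested were higher in AER and 0 were lower, with a median of 1.79. They were led by Tfap2c, an AP-2 factor, at 3.12 (adjusted p = 4.33e-05), the grainyhead factor Grhl2 at 1.79 (adjusted p = 0.000494) and Ovol1, of the zinc-finger OVOL family, at 2.84 (adjusted p = 0.000566, limma). Ovol1 was above background on 2 of 4 ectoderm arrays. The 5 gatekeeper genes that were not called are named here after values were seen. Grhl3 was at 1.89 (adjusted p = 0.0604), Klf5 at 0.45 (adjusted p = 0.255) and Ovol2 at 0.18 (adjusted p = 0.442, limma). Trp63, also a surface ectoderm marker, was at -0.25 (adjusted p = 0.419) and Elf3 at -0.20 (adjusted p = 0.683, limma). Among 14 other EMT transcription factors 7 were lower and 1 was higher, with a median of -1.02. The homeobox gene Gsc was at -5.32 (adjusted p = 3.07e-05) and the cartilage factor Sox9 at -2.65 (adjusted p = 0.000116, limma). Gsc was above background on 1 of 3 AER arrays. The factor that was higher, Lef1, mediates WNT signals and is known in the ridge, and its log2 difference was 1.24 (adjusted p = 0.000651, limma); it was named after values were seen.

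Corepressors and chromatin partners through which these repressors act gave no call. Of 16 tested, 0 were called by limma and 2 had an unadjusted p under 0.05, with a median of -0.05. With normexp and the 75th percentile 1 was called lower. The 3 with the smallest p were Lmcd1 at -0.73 (adjusted p = 0.0555), Wtip at -0.32 (adjusted p = 0.156) and Rcor1 at 0.33 (adjusted p = 0.232, limma). Mesenchymal genes used as EMT readouts were mostly lower in AER, with 12 of 20 lower, 1 higher and a median of -0.97. Col1a1, a fibrillar collagen, was lower at -3.61 (adjusted p = 3.54e-05, limma). The collagen cross-linking enzyme Lox was at least 10.4-fold lower (adjusted p = 5.89e-05, limma) and the matrix gene Tnc at least 9.49-fold lower (adjusted p = 6.86e-05, limma), since all AER arrays were at background. Fn1 and Cdh2, common readouts named here for that role after values were seen, had log2 differences of -0.30 (adjusted p = 0.47) and 0.28 (adjusted p = 0.413, limma).

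Splicing was not measured, since each probe gives 1 summed signal for the transcripts it matches. Of 15 genes with exons known to be spliced by ESRP proteins, 3 were higher in probe signal, 0 were lower and the median was 0.25. Over all genes with a tested probe 15.4% were called, 6.93% higher and 8.47% lower. Cd44, a hyaluronan receptor, was higher at 3.28 (adjusted p = 4.37e-05), the laminin receptor subunit Itga6 at 1.67 (adjusted p = 0.000321) and Grhl1 at 1.76 (adjusted p = 0.00868, limma). Fgfr2, the best-known target and named for that, was at 0.06 (adjusted p = 0.803, limma). Among 19 other splicing regulators 2 were higher and 2 were lower, beside the same shares over all genes, with a median of -0.04. Rbfox3 was at 4.08 (adjusted p = 0.000524), Rbfox1 at -1.40 (adjusted p = 0.000527) and Khdrbs3 at 0.89 (adjusted p = 0.00766, limma).

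**Figure D4:**
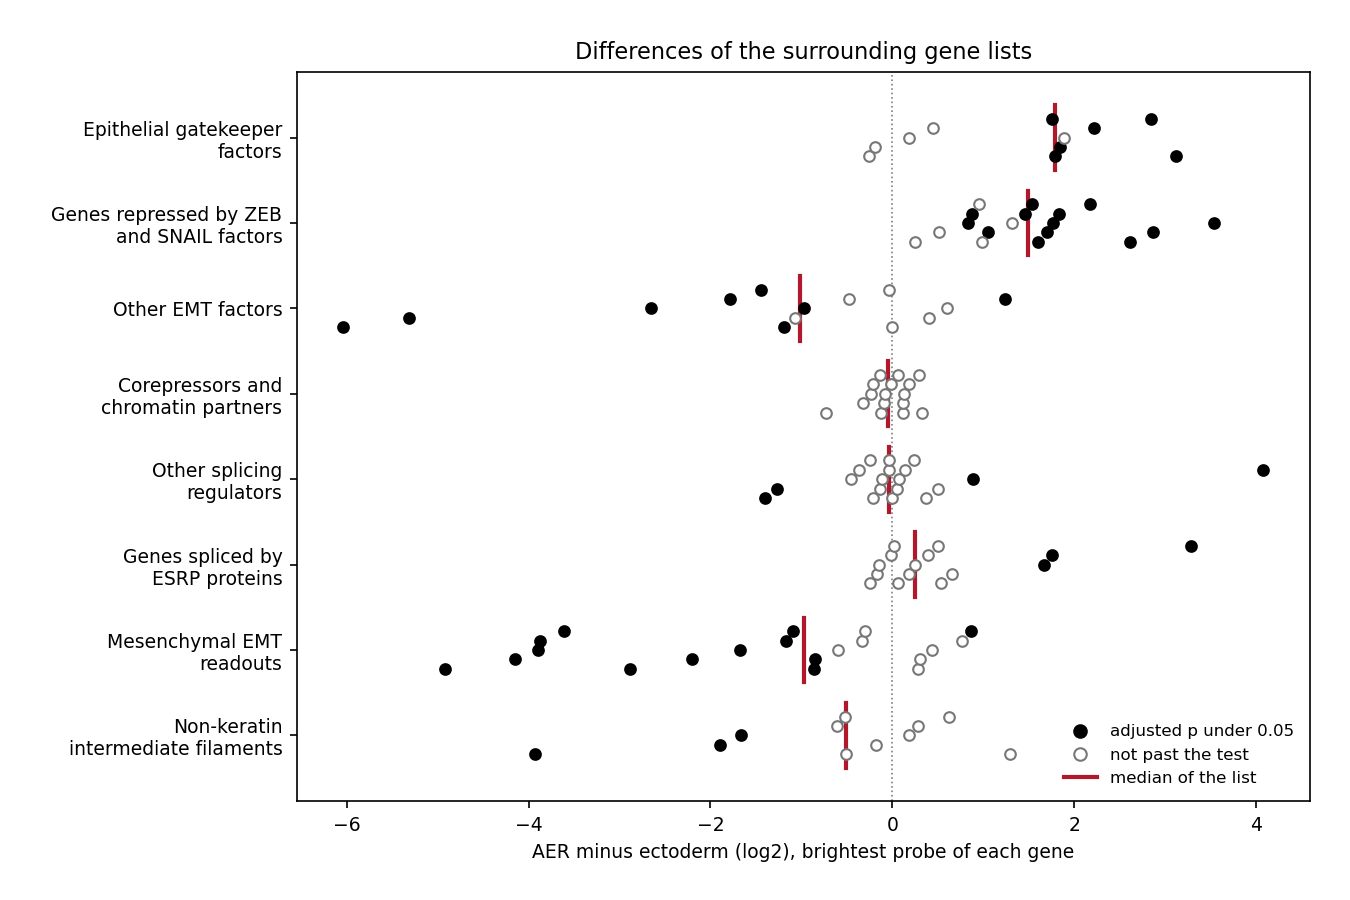
Log2 differences between AER and ectoderm for the tested genes of 8 lists around the EMT regulators, with points right of 0 higher in AER. Filled points passed the test, open points did not, and red bars are list medians. The gatekeeper and repressed epithelial lists have medians of 1.79 and 1.49, the readouts and other EMT factors -0.97 and -1.02, and corepressors -0.05.

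The promoters of the repressed genes and of the repressors were searched for the E-box CACCTG and its reverse complement CAGGTG, each being the other read on the opposite strand. The windows are RefSeq promoters on GRCm38.p6, from 250 bases before to 50 after a gene's start. Of all 32851 promoters 20.2% held the motif, and of 27025 genes 22.6% held it in at least 1 promoter. Of the 19 listed repressed epithelial genes 14 had such promoters, and Cdh1 and St14 were among those that had none. All 14 held the motif in at least 1 promoter, and 18 of their 21 promoters did. Cldn7 has another window, with 0 copies, that is not shown. Such genes are known for this motif, so the count is a description of the list and no independent result. Their median GC content was 59.0%, against 52.7% over all promoters. Of 9 such promoters of 6 members (Zeb2, Snai1, Twist1, Twist2, Prrx1 and Vim), 1 held the motif, that of Snai1. Among gatekeeper factors 2 of 7 promoters did. Shown are the Snai1 window and those of Epcam, Cldn7 and Rab25, which were higher in AER, with motif copies in capitals:
Snai1, chr2:167537945-167538244, plus strand: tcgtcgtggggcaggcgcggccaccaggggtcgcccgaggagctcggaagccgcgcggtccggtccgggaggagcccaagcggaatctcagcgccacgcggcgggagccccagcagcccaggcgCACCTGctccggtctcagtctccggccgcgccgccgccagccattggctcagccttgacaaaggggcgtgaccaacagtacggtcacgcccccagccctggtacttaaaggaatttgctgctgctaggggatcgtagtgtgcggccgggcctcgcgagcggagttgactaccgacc
Epcam, chr17:87635729-87636028, plus strand: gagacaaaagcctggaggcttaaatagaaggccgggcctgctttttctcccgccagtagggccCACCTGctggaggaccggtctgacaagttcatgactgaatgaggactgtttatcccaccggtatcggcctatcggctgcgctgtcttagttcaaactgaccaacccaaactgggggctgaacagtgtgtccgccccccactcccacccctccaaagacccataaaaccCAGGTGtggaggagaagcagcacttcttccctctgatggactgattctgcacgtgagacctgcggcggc
Cldn7, chr11:69965171-69965470, plus strand: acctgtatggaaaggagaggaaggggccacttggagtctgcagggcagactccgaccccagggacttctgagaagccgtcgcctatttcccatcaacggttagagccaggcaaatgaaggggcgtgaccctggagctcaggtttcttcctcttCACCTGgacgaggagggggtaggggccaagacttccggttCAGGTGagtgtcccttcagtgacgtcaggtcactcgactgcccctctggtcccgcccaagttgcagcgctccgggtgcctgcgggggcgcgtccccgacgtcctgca
Rab25, chr3:88548230-88548529, minus strand: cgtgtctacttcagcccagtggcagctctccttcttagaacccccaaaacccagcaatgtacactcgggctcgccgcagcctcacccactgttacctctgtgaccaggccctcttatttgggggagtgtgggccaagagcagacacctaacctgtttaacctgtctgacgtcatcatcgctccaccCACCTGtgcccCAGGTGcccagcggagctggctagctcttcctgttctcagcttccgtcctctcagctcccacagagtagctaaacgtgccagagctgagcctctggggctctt
The first base of the copy in Snai1 lies 126 bases before the start. In Epcam the copies begin 187 and 19 bases before it, in Cldn7 97 and 57, and in Rab25, a vesicle-traffic gene shown for its closely spaced copies and higher at 1.60 (adjusted p = 0.00253, limma), 64 and 53. A match is a description of the letters and no evidence of binding.

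Genes whose profile over the 7 arrays lay closest to each member were found by the root mean square difference of log2 levels, each gene centred on its own mean, among 12108 genes above background on all arrays. Zeb2 was not above background on all arrays and has no such list. Closest to Esrp1 were Itga6 at 0.0987, Vwa2 at 0.113 and Bcam at 0.118. For Esrp2 they were Phldb3 at 0.0455, Ablim1 at 0.134 and Arhgef19 at 0.147. Twist2 was closest to C1qtnf3 at 0.112, Adgre5 at 0.136 and Mybpc1 at 0.155. Prrx1 was closest to Chrdl1 at 0.103, Lpar1 at 0.177 and Dnm3os at 0.182. Vim lay nearest to Dmac2l at 0.0596, Lifr at 0.0733 and Porcn at 0.0741, and Zeb1 to Stoml1 at 0.0673, Pitpnc1 at 0.0728 and Sema3f at 0.0821. Snai2 lay nearest to Fam13a at 0.0840, Arrdc1 at 0.0955 and Vav3 at 0.103. For Snai1 the nearest were Klhl1 at 0.0701, Ptma-ps1 at 0.0725 and Paqr3 at 0.0759, and for Twist1 Zfp773 at 0.0775, Zfp772 at 0.0806 and Tmem104 at 0.0829. With 7 arrays in 2 groups, this likeness includes the shared group difference.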

How the data were processed

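RNA (75 ng per array) was labelled with Cy3 and hybridised to 1-colour Agilent arrays, per the labels; all 7 sat on 1 slide with 1 scan time. Each scanner file the authors deposited gives the processed signal as an intensity, background-subtracted by Feature Extraction 10.7.3.1 and not scaled between arrays, per the file headers. Other deposited columns hold flags for signal well above background, saturation and uneven spots. The authors' deposited matrix is on a log2 scale, and normexp with an offset of 50 plus quantile normalization gave it to within 0.000108. The authors used limma, per the submitters' processing notes.

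Control, uneven and outlying spots were left out, spots of a probe were averaged, and log2 signals were set relative to the 75th percentile of the non-control probes on their array. Probes well above background on at least 3 of 7 arrays were tested (28280). Groups were compared with limma 3.58.1 (lmFit, eBayes, group as the single term, 5 residual degrees of freedom and a prior of 3.63) in R 4.3.3, with Benjamini-Hochberg adjustment over all tested probes at 0.05. The number of arrays limits the precision. Where all AER arrays were at background, the fold is an approximate bound. It is taken against the dimmest signal well above background on each AER array, or the probe's own signal where higher. The adjusted p beside it belongs to the difference without the bound. Paralogues were compared with exact permutation over 35 splits. Names follow RefSeq accessions where they matched.

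The members, the gene lists and the tests were chosen with earlier results of these data known. Named genes are all members, up to 3 genes with the smallest p of each list and the 3 closest profiles of each member; others are said to be picked later. A gene that the rule takes is not reported here. The alternatives were the background correction, scaling, the filter, several probes per gene, array weights, the slide row, a replicate block, averaging ectoderm replicates 2 and 4, and leaving out each array. Some alternatives repeat each other, such as normexp with quantile normalization and the authors' processed values, so counts of alternatives are not of independent fits. Python 3.11.15, pandas 2.3.3, numpy 2.4.6, scipy 1.17.1 and matplotlib 3.10.9 were used.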

Additional observations from a re-analysis of the deposited data

Results flagged for a closer look

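Among 59 genes and probes examined on the 4 ectoderm arrays, 3 had 1 array far from the other 3. Chance alone sets about 1 in 20 such groups apart, so 3 is about the number it gives. The muscle factor Myod1 had a log2 level of 1.48 on ectoderm replicate 3, against 2.41 to 2.48 on the others. The melanoblast gene Dct was at -3.35 on the same array, against -6.12 to -5.91 on the others. The embryonic globin Hbb-y was at 10.4 on ectoderm replicate 2, against 10.6 on the others.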

How the results depend on the processing

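The calls of Esrp1, Esrp2, Zeb2, Twist2 and Prrx1 held in every alternative that kept both slide rows, save those of Esrp1 and Esrp2 under the centring without Krt15. Leaving out 1 array at a time gave log2 differences of 1.45 to 1.73 for Esrp1, 1.40 to 1.79 for Esrp2, -2.69 to -1.91 for Zeb2, -2.79 to -2.5 for Twist2 and -1.72 to -1.52 for Prrx1, all called. Ranges for the others were -0.83 to -0.52 for Zeb1, 0.52 to 0.71 for Snai2, -0.13 to 0.11 for Snai1, -0.29 to -0.01 for Twist1 and -0.63 to -0.43 for Vim. Within slide row 1, 886 probes were called against 4243, with 1 member higher and 1 lower. Within row 2, 1688 probes were called and 0 members were higher, with a lone array on 1 side of each fit. Centred on surface ectoderm markers, 8266 probes were called and 5 members were lower. Without Krt15 among those markers, a setting added after the values were seen, 25479 probes were called and the median of all probes was -1.34. In that setting 0 members were higher and 8 lower, and Snai2 turned to -0.66. Without ectoderm replicate 4, 2826 probes were called, and leaving out other arrays gave up to 4221. Members called higher stayed at 2 and those lower at 3 to 4 when arrays were left out. The share of called probes that were higher in AER was 46.5%, 59.3% when that percentile came from the probes detected on every array, 39.1% for normexp with the 75th percentile 8.31% for the marker centring and 1.59% for it without Krt15. The difference of the Esrp1 and Esrp2 changes was 0.13 with normexp and ranged from -0.23 to 0.12 when arrays were left out, with 0.01 without ectoderm replicate 3. The other pairs ranged from 1.39 to 2.08 (Zeb1 minus Zeb2), -0.81 to -0.45 (Snai1 minus Snai2) and 2.44 to 2.63 (Twist1 minus Twist2). Arrays with the same replicate number shared deviations weakly (correlations of -0.06, 0.17 and 0.11), so the numbers were not taken to pair them. With the replicate number as a block 3041 probes were called, and no call of the 10 genes changed. Zeb2 had no value among probes above background on all 7 arrays. The causes of these shifts were not tested.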
